A study of Mus musculus with 2 samples.

Results

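Matricellular proteins are secreted glycoproteins that sit in the extracellular matrix and tune how cells attach to it, while contributing little to its mechanical frame. Thrombospondins, tenascin-C, periostin, SPARC and osteopontin are the classic examples, and they act by binding integrins, growth factors, proteases and collagen. Fibronectin, fibulin-1 and vitrin are adhesive glycoproteins that are built into fibrils, elastic fibres or basement membranes. In the uterus the stromal matrix is remodelled around implantation, when stromal cells begin to enlarge and take on a decidual form. The group was defined by name as 10 genes, Thbs1, Thbs2, Thbs3, Tnc, Postn, Sparc, Spp1, Fbln1, Vit and Fn1, and read through every probe set whose platform annotation gives only that symbol. Of these, 9 genes had such a probe set, 18 probe sets in all, of the 18193 genes named on the array. Spp1, the gene of osteopontin, had none and was not analysed here. There was also 1 probe set that lists Thbs1 together with another gene, and it was not read.

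The study compared uterine stromal cells of Hand2-null mice with those of floxed control mice on day 4 of pregnancy, with RNA pooled over mice of a genotype and hybridized to 1 Affymetrix array for each. Hand2 encodes a basic helix-loop-helix transcription factor, and the null allele was made by crossing floxed Hand2 to PRcre, in which the progesterone receptor gene drives Cre recombinase, so that recombination is not limited to the stroma. The controls carried floxed Hand2, the background of both groups was mixed C57BL/6 and SV129, and the labels list PRcre under the background of both. The series design gives 5 mice per genotype, the extraction protocol 4. With 1 array a group there was no replicate, no test and no error between mice, and every comparison below is between these 2 pools.

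The floor under which a signal was not read was 67.5 in the Hand2-null array and 64.2 in the control array, the 60th percentile of each, and 10376 genes reached it in at least 1 array. Hand2 itself had 38.5 in the Hand2-null array, less than the floor, against 1545 in the control array, by probe set 1436041_at. Neither of its other 2 probe sets reached the floor in either array, and the labels do not say which exons are removed. As a guide to measurement error, probe sets of the same gene scattered with a standard deviation (SD) of 0.19 on the log2 ratio scale across 3665 genes. It was 0.23 in the dimmest quartile of these genes and 0.15 in the brightest. This SD leaves out any variation between mice. Log2 ratios of Hand2-null over control had a median of -0.03 over all measured genes, and the middle 95% of them lay between -0.66 and 0.93.

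Most members were brighter in the Hand2-null array. By the brightest probe set of each gene, 7 of 9 were higher and 2 were lower, and their median log2 ratio was 0.34, whereas 44.2% of all measured genes were higher. These counts go by sign alone. They include Tnc among the higher, at 0.22, and Fn1 among the lower, at -0.10. The ratio of Fn1 is within the SD between probe sets of genes of similar brightness, and that of Tnc is about as large as this SD. Thbs2 and Fbln1 were at least 2-fold higher, a difference that 1.99% of all measured genes reached, and Vit was at least 2-fold lower, which 0.742% reached. At a threshold of 1.5-fold Postn joined the higher genes, making 3, beside 6.21% of all genes, and Vit remained the single lower gene, beside 3.32%. In bulk RNA, fewer cells that express a gene and less of its RNA per cell cannot be told apart. With a pseudo-signal added to both arrays in place of the floor, Thbs2 and Fbln1 were just under 2-fold, at log2 ratios of 0.96 and 0.99. Of the 18 probe sets, 15 were measured and 3 reached the floor in neither array. By sign alone, 13 of those measured were higher and 2 lower in the Hand2-null array. Genes with several probe sets weigh more in this count, and 1 of the higher is that of Fn1 at 0.03. The like share over all probe sets was not taken.

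**Figure D1:**
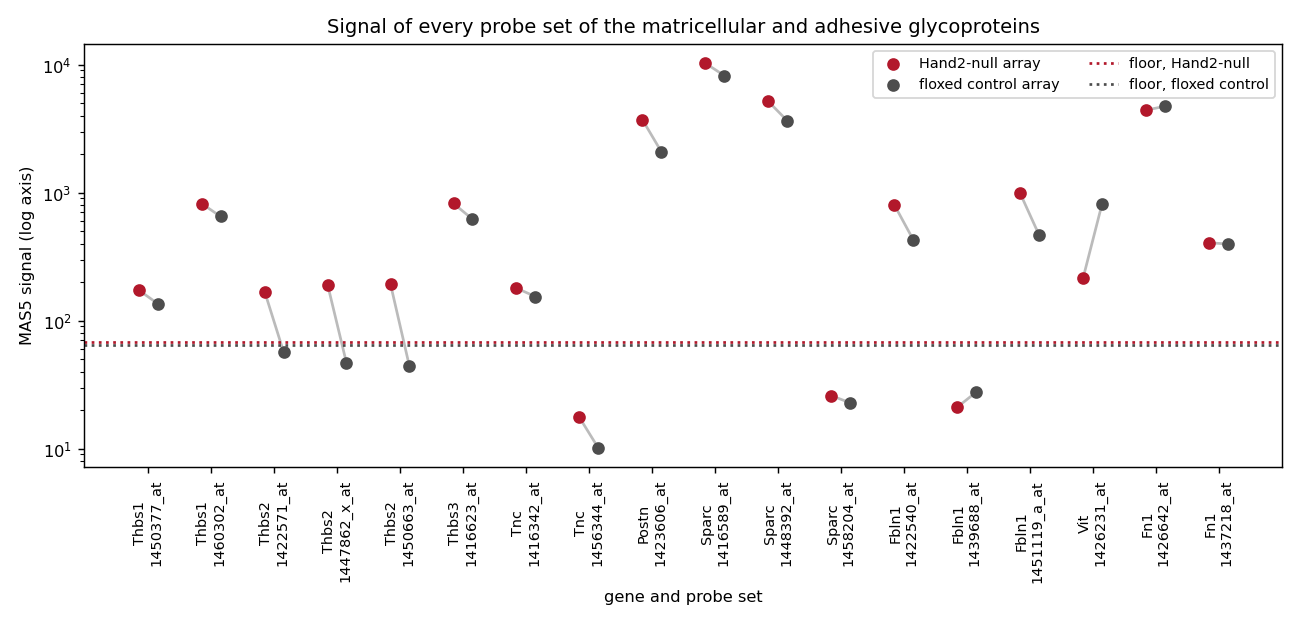
Signal of all 18 probe sets of the 9 genes on a log axis, in the Hand2-null array (red, left of each pair) and the floxed control array (grey, right), with dotted lines at the floors of 67.5 and 64.2. The 3 probe sets of Thbs2 lie above the floor in the Hand2-null array and under it in the control array, and Vit is the member that is clearly lower in the Hand2-null array.

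Thrombospondins are large secreted proteins that bind calcium and cell-surface receptors. Thbs1 and Thbs2 encode trimers that hinder the growth of blood vessels, and Thbs3 encodes a pentamer. Thbs2 stood out among them. Its probe set 1422571_at gave 169 in the Hand2-null array and 57.2, under the floor, in the control array, which is at least 2.63-fold higher. The other probe sets gave 191 in the Hand2-null array against 46.7 in the control array (1447862_x_at) and 192 against 43.9 (1450663_at), which makes them higher by at least 2.98-fold and 2.99-fold. All 3 probe sets thus placed the transcript above the floor in the Hand2-null array alone, and only 81 measured genes had a higher ratio than the lowest of these bounds. The bound depends on where the floor is set: at the 75th percentile of each array the log2 ratio was 0.05, because the Hand2-null signal then barely clears the floor.

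Thbs1, which besides its effect on vessels can activate latent TGF-beta, had signals of 822 in the Hand2-null array and 651 in the control array by probe set 1460302_at, a log2 ratio of 0.34. Its dimmer probe set, 1450377_at, had 174 in the Hand2-null array and 136 in the control array, a log2 ratio of 0.35. The probe sets differed from each other by much less than the SD between probe sets of a gene. Thbs3 had 823 in the Hand2-null array and 621 in the control array, a log2 ratio of 0.41 on 1 probe set. The genes were thus 1.26-fold and 1.32-fold higher, and 13.4% and 10.9% of all measured genes had higher ratios than Thbs1 and Thbs3. The remaining members of the family, Thbs4 and Comp, the cartilage oligomeric matrix protein, reached the floor in neither array.

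Tnc, which encodes the anti-adhesive many-armed glycoprotein tenascin-C of remodelling tissue, had 179 in the Hand2-null array and 154 in the control array by probe set 1416342_at. This log2 ratio of 0.22 is about as large as the SD between probe sets of a gene. That SD was 0.23 in the dimmest quartile, 0.21 in the next and 0.19 over all genes, and Tnc lies near the boundary of these quartiles. Its second probe set, 1456344_at, lay below the floor throughout, at 17.5 in the Hand2-null array and 10.1 in the control array. Tnxb, the tenascin of loose connective tissue, was higher with signals of 1772 in the Hand2-null array and 1090 in the control array, a log2 ratio of 0.70, while Tnn and Tnr were not measured.

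Postn encodes periostin, a protein of collagen-rich tissue that brings the protease BMP1 to lysyl oxidase and so promotes collagen crosslinking. It had a signal of 3714 in the Hand2-null array and 2090 in the control array, which is 1.78-fold higher on its single probe set. Its log2 ratio of 0.83 was larger than the SD of 0.15 between probe sets of bright genes, which leaves out variation between mice. Higher ratios were found in 3.35% of measured genes. The partners in this crosslinking step did not all go with it: Lox, lysyl oxidase, had a log2 ratio of 0.88, with a second probe set at 0.95, and Bmp1 one of 0.07, with a second at -0.04. The periostin relative Tgfbi had 1104 in the Hand2-null array and 1311 in the control array, a log2 ratio of -0.25, and its 3 other probe sets ranged from -0.17 to 0.06.

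Sparc, a collagen-binding glycoprotein that limits cell spreading, was bright in both arrays. Probe set 1416589_at had 10256 in the Hand2-null array and 8213 in the control array, a log2 ratio of 0.32. Probe set 1448392_at gave a somewhat larger difference, with 5157 in the Hand2-null array and 3646 in the control array, a log2 ratio of 0.50. The remaining one, 1458204_at, did not reach the floor in either array. Relatives of Sparc went in both directions. Of 6 measured members of the family, Sparc included, 5 were higher and 1 was lower. Smoc2 was at 0.71, with a second probe set at 0.61, Spock2 at 0.33, Sparcl1 at 0.21 and Fstl1 at 0.10. Smoc1, a basement membrane protein that binds calcium, was the lower one, with signals of 552 in the Hand2-null array and 1059 in the control array, a log2 ratio of -0.94.

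Fbln1, which encodes the fibronectin-binding fibulin-1 of elastic fibres and basement membranes, was higher by both of its measured probe sets. Probe set 1451119_a_at had 986 in the Hand2-null array and 467 in the control array, or 2.11-fold higher. Probe set 1422540_at had 804 in the Hand2-null array and 429 in the control array, or 1.87-fold higher. The gene thus lies at the 2-fold threshold, and the mean of both probe sets, a log2 ratio of 0.99, is just under it. The remaining probe set, 1439688_at, did not reach the floor in either array. Other fibulins did not share the difference, with log2 ratios of 0.27 for Fbln2, 0.25 for Fbln7, -0.01 for Fbln5, -0.07 for Efemp1, and -0.43 for Hmcn1, hemicentin-1, which had signals near the floor.

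Vit was the single member at least 2-fold lower. Vitrin is a secreted matrix protein with von Willebrand factor A domains. Its single probe set, 1426231_at, gave 216 in the Hand2-null array and 815 in the control array, which is 3.77-fold lower. Only 8 of the 10376 measured genes had a lower ratio. Both signals were well above the floor. The related gene Coch, of cochlin, had 25.9 in the Hand2-null array, below its floor, and 64.8, just above it, in the control array, so that no fold is given.

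Fn1, the gene of fibronectin, the main adhesive ligand of integrins with an RGD cell-binding site, had 4411 in the Hand2-null array and 4730 in the control array by probe set 1426642_at. The second probe set, 1437218_at, had 406 in the Hand2-null array and 397 in the control array. The log2 ratios of -0.10 and 0.03 have opposite signs, and both are smaller than the SD between probe sets, so no direction is given for it.

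**Figure D2:**
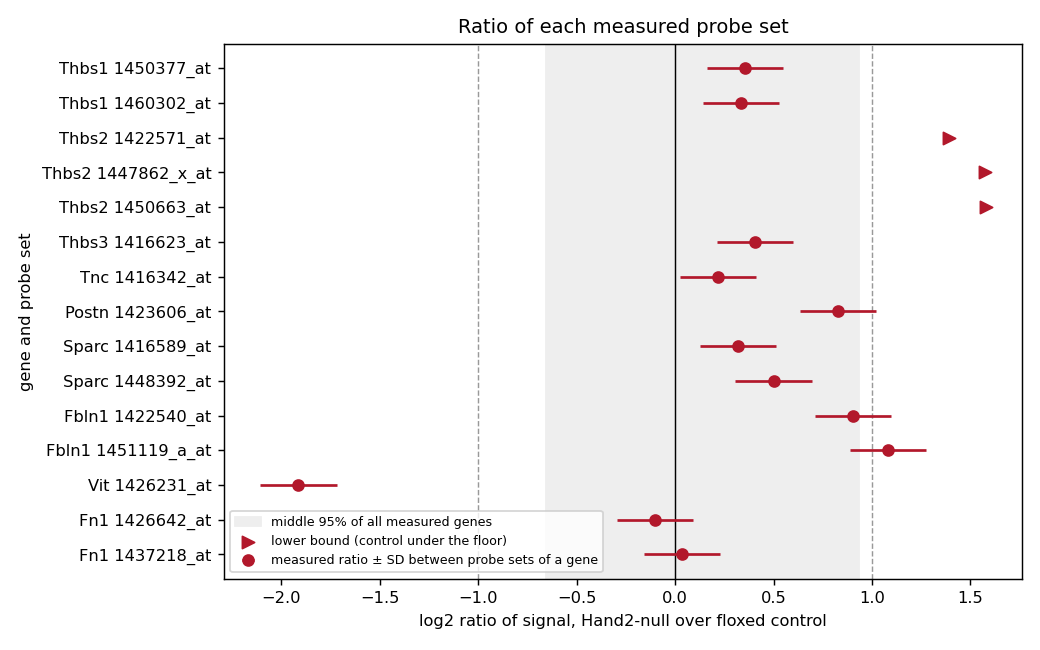
Log2 ratio of Hand2-null over floxed control for the 15 measured probe sets, with bars of ± 0.19, the SD between probe sets of a gene, and arrowheads for lower bounds. The grey band is the middle 95% of all measured genes, from -0.66 to 0.93, and dashed lines mark 2-fold. The probe sets of Thbs2, 1 of the 2 of Fbln1 and that of Vit lie outside the band, and those of Fn1 lie on both sides of 0.

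Set against all measured genes, 4 members lay near or beyond the edges of the range. A higher ratio than that of Fbln1 was found in 164 genes and a higher one than that of Postn in 348, while Tnc, Sparc, Thbs1 and Thbs3 lay among many genes with like ratios. Thbs2 is the member closest to the floor, which is where ratios scatter most.

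Promoter sequences are shown for the 2 genes at least 2-fold higher and for the 2 members whose window holds CAGATG, since basic helix-loop-helix factors such as HAND2 bind E-boxes, of the form CANNTG, as dimers with E-proteins. The windows are the 250 bases before an annotated start, from RefSeq on build GRCm38.p6, written in the direction of the gene, and capitals mark each CANNTG. For Fbln1, which has overlapping windows for neighbouring starts, the one farther downstream is printed.
Thbs2 promoter, chr17:14694263-14694512, minus strand: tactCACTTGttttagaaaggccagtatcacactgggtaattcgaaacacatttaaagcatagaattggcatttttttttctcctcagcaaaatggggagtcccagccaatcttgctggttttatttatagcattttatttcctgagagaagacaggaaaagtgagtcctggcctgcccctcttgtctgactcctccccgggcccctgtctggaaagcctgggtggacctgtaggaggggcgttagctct
Fbln1 promoter, chr15:85205758-85206007, plus strand: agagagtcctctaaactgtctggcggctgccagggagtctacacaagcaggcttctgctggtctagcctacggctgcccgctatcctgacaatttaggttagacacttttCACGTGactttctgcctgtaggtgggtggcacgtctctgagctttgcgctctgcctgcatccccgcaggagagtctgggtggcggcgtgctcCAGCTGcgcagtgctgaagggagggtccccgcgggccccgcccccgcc
Thbs3 promoter, chr3:89214930-89215179, plus strand: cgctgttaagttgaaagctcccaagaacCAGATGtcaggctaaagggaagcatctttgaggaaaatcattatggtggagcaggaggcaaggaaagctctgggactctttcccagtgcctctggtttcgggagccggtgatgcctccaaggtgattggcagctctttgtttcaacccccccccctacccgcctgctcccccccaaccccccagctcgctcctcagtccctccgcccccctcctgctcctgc
Sparc promoter, chr11:55420081-55420330, minus strand: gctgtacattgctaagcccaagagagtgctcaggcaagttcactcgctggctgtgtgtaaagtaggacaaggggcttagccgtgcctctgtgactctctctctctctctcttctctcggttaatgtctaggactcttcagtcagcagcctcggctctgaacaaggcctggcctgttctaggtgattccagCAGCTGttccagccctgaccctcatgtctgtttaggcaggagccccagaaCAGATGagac

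RefSeq windows were matched for 6 of the 9 measured genes, Fbln1, Postn, Sparc, Thbs2, Thbs3 and Tnc, with 9 windows. Of these windows 7 held a CANNTG, which reads the same on both strands, as did 66.2% of 32851 windows of all genes. CAGATG or its reverse complement CATCTG, which are themselves forms of CANNTG, stood in 2 of the 9, those of Sparc and Thbs3, and in 14.4% of all windows. Thbs2 had a single E-box, CACTTG, and Postn had no CANNTG in either of its windows. Fbln1 had CACGTG in both of its windows and CAGCTG only in the one printed. The windows of Fbln1 overlap, as do those of Tnc, so that the same E-box can count for more than 1 window. A match describes these letters and is no evidence of binding.

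Genes of related function were read beside the members. Of 50 other matricellular and adhesive glycoproteins on the list, 34 were measured, of which 23 were higher and 10 lower in the Hand2-null array. Their median log2 ratio was 0.23. At least 2-fold higher were 4 of them, and 0 were at least 2-fold lower. Mmrn1, multimerin-1 of platelets and endothelium, had 800.1 in the Hand2-null array and 302 in the control array, or 2.65-fold higher. Npnt, nephronectin, a basement membrane ligand of integrin alpha-8, was 2.53-fold higher, with a second probe set at a log2 ratio of 1.13. Ecm1, a secreted matrix glycoprotein, was 2.10-fold higher and Fgl2, a fibrinogen-like protein, 2.02-fold. Proteins of the CCN family, matricellular growth regulators, were split. Ccn1, Ccn3 and Ccn4 were at 0.44, 0.43 and 0.49, whereas Ccn2 had 987 in the Hand2-null array and 1709 in the control array, a log2 ratio of -0.79 on 1 probe set. The values of single families, here and beside Tnc, Postn, Sparc and Fbln1, were chosen by kinship and not by the size of the difference.

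Receptors of these proteins went in both directions. Of 18 measured receptors 11 were higher and 7 lower, and the median log2 ratio was 0.25. The threshold of 2-fold was passed by 2 of the higher and 1 of the lower receptors. Itgb8, the integrin subunit that with alpha-v activates latent TGF-beta, had 230.0 in the Hand2-null array and 639 in the control array, or 2.78-fold lower. Itga9, whose integrin binds tenascin-C and osteopontin, was 2.11-fold higher. Itga5, the fibronectin receptor subunit, was 2.08-fold higher by its brightest probe set, but its other 2 gave log2 ratios of 0.23 and 0.26. Itga4, another subunit for fibronectin, was at 0.56 with a second probe set at -0.42. The thrombospondin receptors were also split, with Cd47 at 0.34 and Cd36 at -0.54.

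Among 20 measured genes that cleave or crosslink the members or bind beside them in the matrix, 19 were higher and 1 was lower, and the median log2 ratio was 0.42. At least 2-fold higher were 3. Mmp11, stromelysin-3, had 653 in the Hand2-null array and 183 in the control array, or 3.56-fold higher. Mmp3, stromelysin-1, which cleaves fibronectin, was 3.04-fold higher and Eln, elastin, 2.34-fold. Col1a1, a collagen chain bound by SPARC, was at 0.98, with a second probe set at 0.86. The lower gene was Mmp2, a gelatinase, at -0.24.

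Markers of the cells in the isolates were read with the same rule. All 11 stromal markers were measured in both arrays, and in the Hand2-null array 6 had more signal and 5 had less. Their log2 ratios had a median of 0.07, or 0.15 with the mean over probe sets. Col1a1 had the largest, 0.98, with a second probe set at 0.86, and Hoxa11, Lum and Pdgfra were at -0.68, 0.68 and -0.42. Col3a1 and Col1a2, the brightest, were at 0.12 and 0.15. Their other probe sets gave more, 0.56 for Col3a1 and 0.72 and 1.29 for Col1a2. The isolates also held smooth muscle transcripts, and by its brightest probe set each of 17 markers was higher in the Hand2-null array, 13 by 2-fold or more. The median was 1.36, with summed signals of 62730 in the Hand2-null array and 27976 in the control array. Single log2 ratios of that list ran from 0.46 to 2.32, and 2 of the markers were under the floor in the control array. The brightest of them were Acta2, smooth muscle actin, at 0.70, and Tpm2, a tropomyosin, at 0.95, and the largest ratios by that probe set were those of Hspb7, Cnn1, Jph2 and Myh11, at 2.32, 2.02, 1.95 and 1.68. Other probe sets differed for some of them: a second one of Hspb7 was at 0.62 and a second one of Acta2 at 1.72, and Synpo2, at 0.82 by its brightest, was lower by its other 2, at -0.47 and -0.25. Of 8 mesothelial markers 7 were higher, the median being 0.88 and summed signals of 2514 in the Hand2-null array and 1486 in the control array. The control signals of 4 of them were under the floor, so that their ratios are bounds. Gpm6a and Upk3b were at 1.77 and 1.42, with second probe sets at 0.56 and 0.94, while Wt1 was at -0.23. Thbs2, Fbln1 and Postn were higher in the same array as both lists, and the part of these cells in their signals was not tested.

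The other lists differed less. Among 14 early-response and heat-shock genes, whose transcripts can climb while cells are dissociated, 13 were higher, the median log2 ratio being 0.47, none at least 2-fold, and summed signals of 44001 in the Hand2-null array and 34581 in the control array. Fosb and Atf3 were at 0.98 and 0.88, and Fos and Egr1, the brightest, at 0.19 and 0.23. Of 12 epithelial markers 8 were higher and the median was 0.18, with Krt19, Elf3 and Cldn4 at 0.96, 0.69 and 0.46 and Foxa2 at -0.79. Krt19 is on the mesothelial list as well. Krt8 and Krt18, the brightest, were at 0.04 and -0.26. Endothelial markers, of cells that respond to thrombospondins, were lower in 8 of 10 with a median of -0.24, with Cdh5 at -1.11 and Cldn5 at 1.55. Pericyte markers were lower in 4 of 6 with a median of -0.23, led in brightness by Rgs5 at -0.48. The largest ratio among them went the other way, that of Cspg4 at 0.79, with a second probe set at 1.34. Macrophage markers were lower in 7 of 11 with a median of -0.05, natural killer cell markers in 3 of 4 with a median of -0.39. Only these 4 of the 6 natural killer cell markers on the array were measured. The brightest, Gzmb, had 169 in the Hand2-null array and 230 in the control array. Klrk1, the higher one, was under the floor in the control array, so its ratio is a bound. Of 6 platelet markers, read because platelets store thrombospondin-1, 2 were measured, Pf4 at 0.29 and Itga2b at 0.04, and 4 did not reach the floor. The part of these cells in the members' signals was not tested either.

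**Figure D3:**
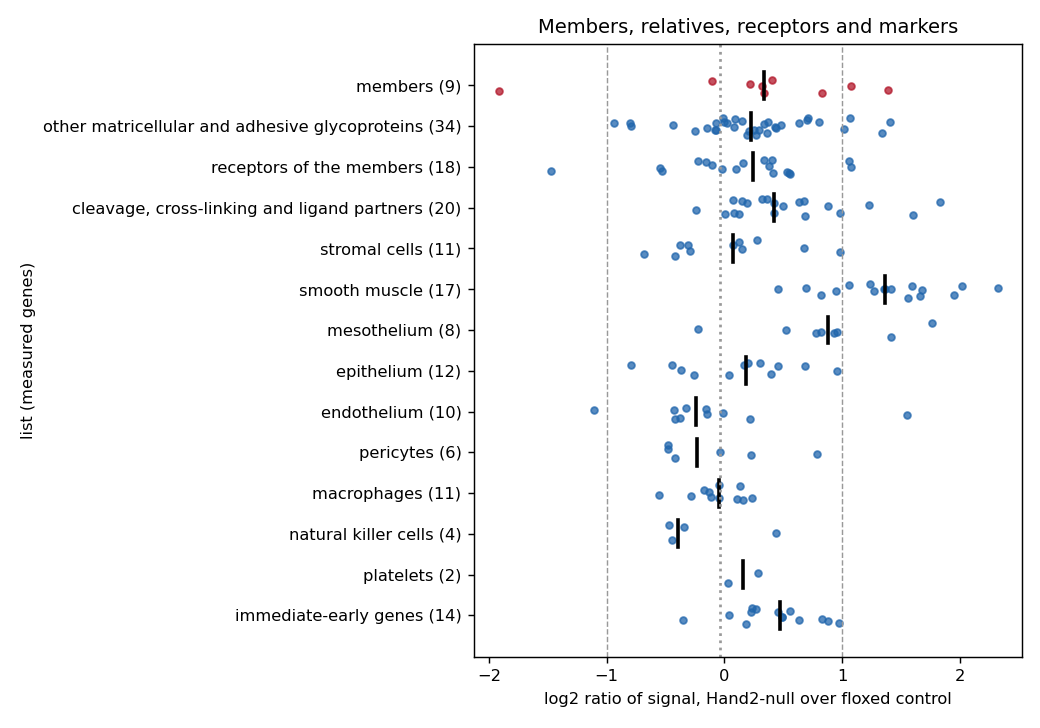
Log2 ratio of Hand2-null over floxed control for each measured gene (points, jittered vertically) of the members (red) and of each list (blue), with the number measured in brackets, black bars at the medians, a dotted line at the median of all measured genes (-0.03) and dashed lines at 2-fold. Smooth muscle markers lie farthest to the right with a median of 1.36, and the members range from -1.91 to 1.39 around a median of 0.34.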

How the data were processed

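Total RNA of uterine stromal cells was hybridized to 2 Affymetrix arrays, 1 for each genotype. The authors deposited linear intensity values, the MAS5 signal of each probe set. The submitters' processing notes name MAS5 and Affymetrix Expression Console 1. With 2% of values trimmed at either end, the mean was 150.0008 on both arrays, so they had been scaled to it. The genome build was not given in the sources used here. Since MAS5 subtracts mismatch signal, dim probe sets give unsteady ratios, and detection calls were not used here. Of 45101 probe sets 64 controls were left out, and 34945 others listed 1 gene.

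Signals under the 60th percentile of their array were set to it before the log2 ratio was taken, and a gene was measured when a probe set reached it in at least 1 array. Where only 1 array reached it the fold is a bound, set to a log2 ratio of 0 where the bound opposed the signals. Each gene was represented by its brightest probe set on the log2 scale, and a difference counted at 2-fold. No test was possible with 1 array per group, whose number limits the precision. All members are named. List genes were named from the up to 4 with the largest ratio and, for marker lists, the 2 brightest, but not all of these are given. Genes given by family or as receptors and partners of a member were named outside that rule, as was Synpo2, whose probe sets differed. The members, lists and rule were chosen with earlier results of these data known. Alternatives were median centring, quantile normalization, loess (span 0.3), a floor at the 50th or 75th percentile or no floor, a pseudo-signal as large as the floor, averaging a gene's probe sets, dropping those ending in _s_at or _x_at, and thresholds of 1.5-fold and 3-fold. The calculation was tested on simulated data. Python 3.11.15, numpy 2.4.6, pandas 2.3.3 and statsmodels 0.14.6 were used.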

Additional observations from a re-analysis of the deposited data

How the results depend on the processing

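Vit stayed at least 2-fold lower under every alternative, with log2 ratios from -1.91 to -1.63, the weakest with a pseudo-signal, and 1 member was at least 2-fold lower throughout. The count of members at least 2-fold higher was 2, and it was 1 with the floor at the 75th percentile, where Thbs2 had a log2 ratio of 0.05, 1 with the mean over probe sets, where Fbln1 had 0.99, 0 with a pseudo-signal, where they had 0.96 and 0.99, and 0 at 3-fold. At 1.5-fold it was 3. The count over all genes also depends on the floor: with none, 1646 of 18193 were higher and 1626 lower at 2-fold, and 117 and 45 of 7489 when the floor was the 75th percentile. With the mean over probe sets 195 of 10376, or 1.88%, were higher and 70 lower. Of the same 10376, 117 were higher and 40 lower with a pseudo-signal, 644 and 345 at 1.5-fold, and 49 and 20 at 3-fold. The median of the members ranged from 0.32 to 0.41, and the log2 ratio of Postn from 0.81 to 0.87. Of 81 values of single members under alternatives, 78 moved by no more than the SD between probe sets of a gene. Of the list medians, that of platelet markers turned to -0.08 with no floor, that of mesothelial markers was 1.39 with no floor or one at the 50th percentile, and that of natural killer cell markers was -0.20 with the floor at the 50th percentile, against -0.39. Medians of the other lists moved by no more than that SD. Control signals under the floor limit Thbs2 to a bound. No paired analysis was possible because each genotype has 1 pooled array.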

Other observations

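Probe sets of the same bright matrix gene gave differences of unequal size, in both orders. Col1a2 had a log2 ratio of 0.15 by its brightest probe set, with 11087 in the Hand2-null array and 10014 in the control array, against 0.72 and 1.29 by its other 2. Col3a1 had 0.12 by its brightest, with 12693 in the Hand2-null array and 11668 in the control array, and 0.56 by its other, and Sparc had 0.32 and 0.50. Col1a1, at 0.98 by its brightest and 0.86 by its other, and Fbln1, at 1.08 and 0.91, ran the opposite way. The SD between probe sets of a gene was 0.15 in the brightest quartile. The gaps of Sparc, Col1a1 and Fbln1 are close to this SD, and only those of Col1a2 and Col3a1 are well past it. All genes named here were picked after their values were seen, and the cause was not tested.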
